A study of Mus musculus with 2 samples.

Results

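The genes described here are 36 interferon-stimulated genes and components of interferon signalling, chosen by name from the 23284 genes counted in each library. All 36 were found in the files by symbol. They were read in mouse hepatocytes in primary culture, with 1 library per group. Both groups were C57BL/6 cells, each a pool from 5 mice. One group was infected with control lentivirus, and its label calls it wild type. The other was infected with lentivirus expressing an shRNA against JMJD3, a demethylase of histone H3 lysine 27 encoded by Kdm6b. Infection began 24 h after plating and lasted 48 h, and both cultures were then kept for 6 h with 10 µM forskolin, which raises cyclic AMP and stood in for fasting, in 5 mM glucose. Lentivirus and forskolin were thus common to both groups, and no uninfected culture was analysed here. Differences in virus dose or in the response to the shRNA itself were not tested, and cannot be told apart from reduced JMJD3. The series title names JMJD3 and fatty acid oxidation, and the comparison gives the level of the interferon genes when JMJD3 is reduced.

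Interferons are secreted proteins that cells release on sensing viral nucleic acid. Type I interferons bind a receptor made of IFNAR1 and IFNAR2, whose kinases JAK1 and TYK2 activate STAT2. With IRF9 it acts at interferon-stimulated response elements (ISREs) in promoters. Interferon gamma binds IFNGR1 and IFNGR2 and acts at gamma-activated sites (GAS). The induced genes block viral replication, sense foreign RNA, load peptides on MHC class I and, as with USP18, switch the pathway off. Hepatocytes express the type I receptor and respond to interferon in viral hepatitis.

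The control library held 11099562 counts and the knockdown library 18334366, so a ratio close to 1 rests on more reads in the knockdown. Kdm6b stood at 90.7 CPM (counts scaled to the size of the library) in control and 33.0 CPM in the knockdown. Of 9 hepatocyte markers 5 were lower and 1 higher in the knockdown, and the summed level went from 11916 to 8503 CPM. By the size rule given below, 12.8% of all measured genes were lower and 15.3% higher. Cps1 was at 223 CPM in control and 3.87 CPM in the knockdown, Fgb at 3987 and 846, and Alb at 1519 and 794. Apob, the higher one, was at 1300 and 2229 CPM, a log2 ratio of 0.78. Its exons sum to 13909 bp, and the trend of the ratio with exon length, described below, was log2 0.55 at that length. Apoa1, usually abundant in liver, had only 37 and 53 counts. Of 12 macrophage markers in the files only 5 were measured, and none of these passed the size rule. The other 7 were below the level required and could not pass. The 12 summed to 27.3 CPM in control and 29.1 CPM in the knockdown, and Clec4f and Timd4 were at 0 in both. The 11 lymphoid markers summed to 1.51 and 0.828 CPM, with 6 at 0 in both libraries (Cd3e, Cd8a, Nkg7, Ncr1, Gzmb and Ms4a1). The dendritic list summed to 169.7 and 129 CPM, nearly all of it from Bst2, which is itself one of the 36 genes, while Flt3 and Cd209a were at 0. Endothelial markers summed to 59.3 and 55.6 CPM with 1 of 8 measured genes higher and 2 lower, and stellate and fibroblast markers to 249.7 and 233 CPM with 3 of 8 lower. Cholangiocyte markers had 3 of 6 higher and summed to 8098 and 8432 CPM, mostly from Spp1. The part of these other cells in the results below was not tested, and in bulk RNA fewer cells of a type cannot be told apart from less RNA per cell.

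The interferon genes did not move as a group. Each gene is given as its count scaled to CPM with TMM factors, as the ratio of knockdown over control, and with an exact conditional binomial 95% interval that covers counting error only. Neither group has a replicate, so no test was made and a size rule is used instead: a gene passed when its ratio was at least 1.5-fold from 1 and the interval excluded 1, among genes with a mean of at least 1 CPM. Of the 36 genes 35 reached that level, 6 of them passed as higher (17.1%) and 3 as lower (8.57%), beside 15.3% higher and 12.8% lower among all 12607 measured genes. That is 9 of 35 in either direction, beside 28.0% of all measured genes. With scaling by library total alone the split was 6 higher and 5 lower, and the shares of all measured genes were not computed for that scaling. The median log2 ratio of the 35 was 0.00, with quartiles at -0.33 and 0.37, and that of all measured genes was 0.00, with quartiles at -0.34 and 0.37. Ratios were above 1 in 18 genes and below 1 in 17, and the summed level of the 36 was 1946 CPM in control and 1916 CPM in the knockdown. Across all measured genes the ratio rose with exon length. With that trend removed the 9 genes still passed, Ifit1 passed as higher and Rsad2 as lower, and the ratios of Ddx58, Ifnar1, Isg15, Psmb8 and Psmb9, none of which passed, moved to the other side of 1. The shares that passed lie near those of all measured genes, so the count says little of the group, and what differs is which genes stood on each side.

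The genes that passed as higher were Ifit2, Ifngr1, Irf5, Gbp2, Ifit3 and Irf2, and those that passed as lower were Usp18, Oasl1 and Stat2. In the authors' deposited table, which states neither its test nor the spread it assumes, 6 of the 35 had an adjusted p-value under 0.05 with a positive fold change and 4 with a negative one, beside 14.6% and 11.8% of all 12838 genes in that table. The same 9 genes were among those 10, and the other was Irf7, with an adjusted p-value of 0.0465. In the authors' deposited table the adjusted p-value was 2.53e-07 for Usp18, 7.09e-06 for Ifngr1, 1.54e-05 for Ifit2, 3.27e-05 for Oasl1 and 0.000841 for Stat2. It was 0.00347 for Irf5, 0.00423 for Irf2, 0.0274 for Gbp2 and 0.0361 for Ifit3 in the authors' deposited table, and 0.0507 for Ifit1.

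**Figure D1:**
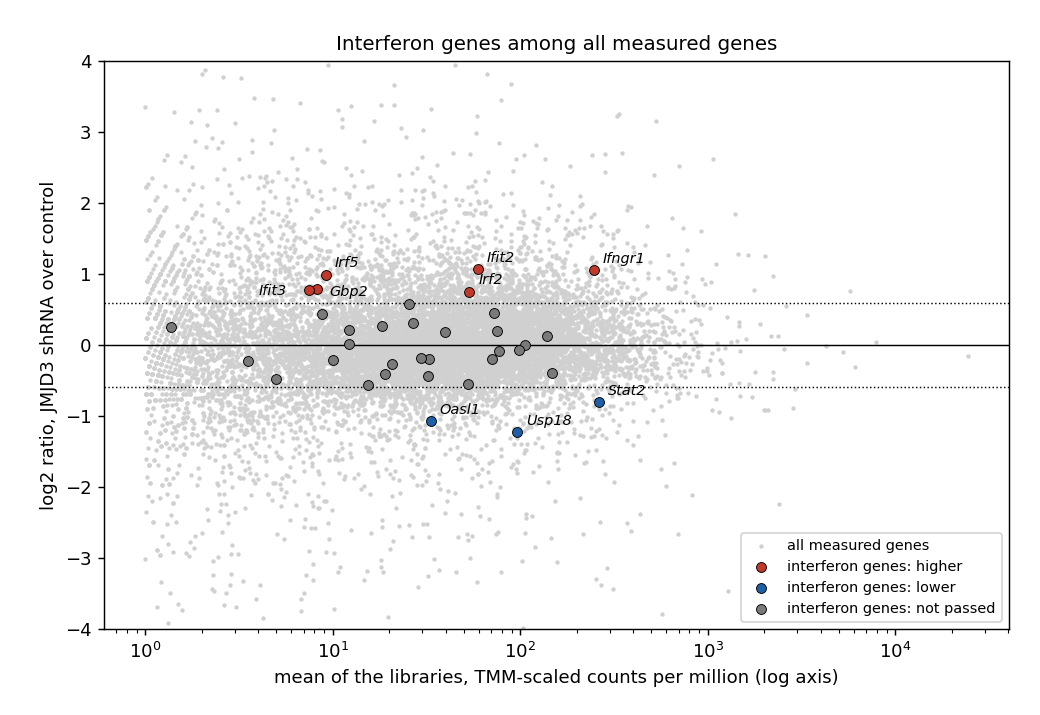
Each grey point is a measured gene, with its mean TMM-scaled CPM on the x axis (log) and the log2 ratio of knockdown over control on the y axis, which is limited to 4 either way and leaves 69 genes outside. The coloured points are the 35 measured interferon genes, red for the 6 higher and blue for the 3 lower by the size rule (dotted lines), and they lie among the other genes on both sides of 0.

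The promoters of the genes that passed are shown so that their motifs can be set beside the direction of each gene. RefSeq promoter windows on GRCm38.p6, 250 bases before and 50 bases after the transcript start, were held for 31 of the 36 genes, 8 of the 9 that passed among them, and Usp18 was not among the 31. The ISRE core was searched as GAAA, NN and GAAA in a row and the GAS as TTCNNNGAA, on both strands. Matches may overlap one another. An ISRE core was found for 12 of 31 genes (38.7%), beside 3.99% of the 27025 genes in the table, and a GAS match for 10 of 31, beside 9.55% of those genes. Of all 32851 windows, 3.44% held an ISRE core and 8.30% a GAS match. Of the 31 genes 5 have several windows, which gives them more chances of a match. Among the genes that passed, an ISRE core was found in 3 of 6 higher genes (Ifit3, Gbp2 and Irf2) and in 1 of 2 lower genes (Stat2), and among those that did not pass in 8 of 23. Genes with this motif thus stood on both sides and in the middle. The 250 bases before the start are printed 5′ to 3′ on the strand of the gene, with either motif in capitals. Ifit2 has more than 1 start in the table and its upstream one is shown, and Bst2 is added as the most abundant gene that did not pass.
Ifit3 (chr19:34583279-34583528, plus strand): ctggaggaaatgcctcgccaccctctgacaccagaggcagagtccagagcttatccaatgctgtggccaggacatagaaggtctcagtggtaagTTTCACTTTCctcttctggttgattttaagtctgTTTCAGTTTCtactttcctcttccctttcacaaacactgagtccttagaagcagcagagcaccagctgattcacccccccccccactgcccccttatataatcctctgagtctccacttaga
Gbp2 (chr3:142620413-142620662, plus strand): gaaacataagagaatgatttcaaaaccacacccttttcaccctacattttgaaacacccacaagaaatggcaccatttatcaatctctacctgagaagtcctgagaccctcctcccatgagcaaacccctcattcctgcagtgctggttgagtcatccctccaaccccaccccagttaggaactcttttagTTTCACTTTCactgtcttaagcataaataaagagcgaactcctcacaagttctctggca
Irf2 (chr8:46739495-46739744, plus strand): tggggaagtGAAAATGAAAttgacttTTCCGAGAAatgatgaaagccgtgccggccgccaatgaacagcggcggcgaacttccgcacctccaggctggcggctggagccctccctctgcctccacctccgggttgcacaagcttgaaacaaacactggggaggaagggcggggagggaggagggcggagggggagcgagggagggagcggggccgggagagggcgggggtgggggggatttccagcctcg
Ifit2 (chr19:34550444-34550693, plus strand): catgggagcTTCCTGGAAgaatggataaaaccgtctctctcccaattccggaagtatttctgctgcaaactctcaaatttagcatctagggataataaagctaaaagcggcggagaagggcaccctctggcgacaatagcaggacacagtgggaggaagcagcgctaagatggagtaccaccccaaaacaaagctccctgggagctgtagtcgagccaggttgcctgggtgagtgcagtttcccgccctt
Ifngr1 (chr10:19591699-19591948, plus strand): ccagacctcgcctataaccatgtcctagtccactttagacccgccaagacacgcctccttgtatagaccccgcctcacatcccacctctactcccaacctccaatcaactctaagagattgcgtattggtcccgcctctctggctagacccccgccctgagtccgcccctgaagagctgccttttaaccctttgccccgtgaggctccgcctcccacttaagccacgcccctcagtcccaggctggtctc
Irf5 (chr6:29526375-29526624, plus strand): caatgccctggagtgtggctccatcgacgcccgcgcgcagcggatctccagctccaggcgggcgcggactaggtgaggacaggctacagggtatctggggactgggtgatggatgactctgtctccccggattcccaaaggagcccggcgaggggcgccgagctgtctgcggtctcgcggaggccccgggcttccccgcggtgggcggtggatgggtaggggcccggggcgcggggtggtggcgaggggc
Stat2 (chr10:128270248-128270497, plus strand): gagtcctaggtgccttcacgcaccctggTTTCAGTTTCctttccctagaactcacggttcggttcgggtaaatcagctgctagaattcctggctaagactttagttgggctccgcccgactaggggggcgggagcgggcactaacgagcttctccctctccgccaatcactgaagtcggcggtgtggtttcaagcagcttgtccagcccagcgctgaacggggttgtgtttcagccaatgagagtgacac
Oasl1 (chr5:114922990-114923239, plus strand): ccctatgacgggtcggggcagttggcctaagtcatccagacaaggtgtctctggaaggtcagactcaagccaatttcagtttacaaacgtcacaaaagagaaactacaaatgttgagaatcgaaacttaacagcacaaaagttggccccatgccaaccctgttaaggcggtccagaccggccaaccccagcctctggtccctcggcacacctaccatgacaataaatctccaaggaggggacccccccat
Bst2 (chr8:71537473-71537722, minus strand): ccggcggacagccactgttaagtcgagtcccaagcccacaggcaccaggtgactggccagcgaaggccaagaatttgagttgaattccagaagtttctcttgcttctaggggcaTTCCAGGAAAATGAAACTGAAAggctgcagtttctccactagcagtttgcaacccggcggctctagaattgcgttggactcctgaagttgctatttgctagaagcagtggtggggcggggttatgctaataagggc
In Ifit3 both ISRE cores lie on the other strand, their leftmost bases 156 and 122 bases before the start, and the single core of Gbp2 lies 59 bases before it. The core of Irf2 lies 241 bases before the start and is followed by a GAS match, and that of Stat2, on the other strand, lies 222 bases before it. Bst2 holds 2 overlapping cores, from 130 and 124 bases before the start, and the first overlaps a GAS match. The 250 bases of Oasl1, Ifngr1 and Irf5 hold neither pattern, and those of Ifit2 only a GAS match, which says nothing of other windows or other forms of the element. A match is a description of letters, not of binding.

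The sensors were detected in both libraries and none passed the size rule. Ddx58, which encodes the RNA helicase RIG-I, stood at 106.6 CPM in control and 106.8 CPM in the knockdown, on 1198 and 1934 counts. Its log2 ratio was 0.00 with an interval of -0.10 to 0.11, which includes a ratio of 1, and with the exon length trend removed it was -0.17 (-0.28 to -0.07). Ifih1, the sensor MDA5 for long double-stranded RNA, was at 61.6 and 84.4 CPM, a log2 ratio of 0.45 (0.32 to 0.59) that stayed under the fold required. With the exon length trend removed Ifih1 was at 0.24 (0.11 to 0.38). Dhx58, which encodes LGP2, a relative that modulates the other helicases, was at 12.2 and 12.3 CPM. Zbp1, a sensor of Z-form nucleic acid that can trigger necroptosis, was at 7.47 and 10.1 CPM, with a log2 ratio of 0.44 (0.06 to 0.83). The median log2 ratio of the 4 sensors was 0.22, and 0.15 with the exon length trend removed.

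Among the receptor chains the ligand-binding chain for interferon gamma stood apart. Ifngr1 was at 160.2 CPM in control and 332 CPM in the knockdown, on 1800 and 6017 counts, a 2.08-fold ratio (log2 1.05, interval 0.98 to 1.13). It lies on chromosome 10 from 19311764 to 19330031 in mm9, on the plus strand, with 7 exons. Its partner chain Ifngr2 was at 70.2 and 80.1 CPM (log2 0.19, interval 0.06 to 0.32). Ifnar1 was at 133 and 145 CPM and Ifnar2 at 101 and 95.9 CPM, with log2 ratios of 0.12 and -0.08, and Ifnar1 was at -0.18 with the exon length trend removed. Neither chain of the type I receptor passed, and the interval of Ifngr1 overlapped with none of the other 3. Per kb of exon, in control Ifngr1 had 76.3 CPM per kb against 33.9 for Ifngr2, and in the knockdown 158 against 38.7.

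The regulatory factors and STAT2 went in both directions, 2 of 8 higher and 1 lower, with a median log2 ratio of 0.05. Stat2, the STAT that serves the type I and type III interferon receptors, was at 335 CPM in control and 191 CPM in the knockdown, from 3763 and 3460 counts. The ratio was 0.571 (log2 -0.81, interval -0.88 to -0.74), the narrowest interval of the genes that passed. Stat2 lies on chromosome 10 from 127707632 to 127729905 in mm9, on the plus strand, with 24 exons. Its DNA-binding partner Irf9 was at 78.9 and 74.5 CPM, a log2 ratio of -0.08 (-0.21 to 0.04). The interval of Stat2 lay below that of Irf9. In control Stat2 had 76.2 CPM per kb of exon and Irf9 29.4, and in the knockdown they had 43.5 and 27.7, the same order.

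Irf2, a factor that competes with Irf1 at shared sites and often represses them, was at 39.9 CPM in control and 67.2 CPM in the knockdown (log2 0.75, interval 0.60 to 0.91). Irf1, an activator induced by interferon gamma, was at 37.0 and 42.1 CPM (log2 0.19, interval 0.01 to 0.36). The interval of Irf2 lay above that of Irf1. Irf5, which acts downstream of Toll-like receptors, mainly in myeloid cells, was at 6.14 and 12.2 CPM on 69 and 221 counts (log2 0.99, interval 0.60 to 1.403). Beside it, the 5 macrophage markers that were measured had log2 ratios of -0.31 to 0.47, and Csf1r was at 9.88 and 10.3 CPM. The intervals of Emr1 (-0.72 to 1.56) and Marco (-0.30 to 1.29) included the ratio of Irf5. Those of Cd68, Csf1r and Lyz2 lay below it. The part of macrophages in the level of Irf5 was not tested. Irf8, another factor of myeloid cells, had only 14 and 27 counts and an interval of -0.72 to 1.30.

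Irf3 and Irf7 switch on the interferon genes themselves once they are phosphorylated. Irf3, present at all times in most cells, was at 75.4 and 65.7 CPM (log2 -0.20, interval -0.33 to -0.07). Irf7, which interferon itself induces, was at 63.0 and 43.0 CPM (log2 -0.55, interval -0.70 to -0.40). Irf7 fell just short of the 1.5-fold limit, and with scaling by library total alone its log2 ratio was -0.59 and it passed as lower. Irf2 lies on chromosome 8 from 47825099 to 47932812 and Irf5 on chromosome 6 from 29476625 to 29487320 in mm9, both on the plus strand.

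**Figure D2:**
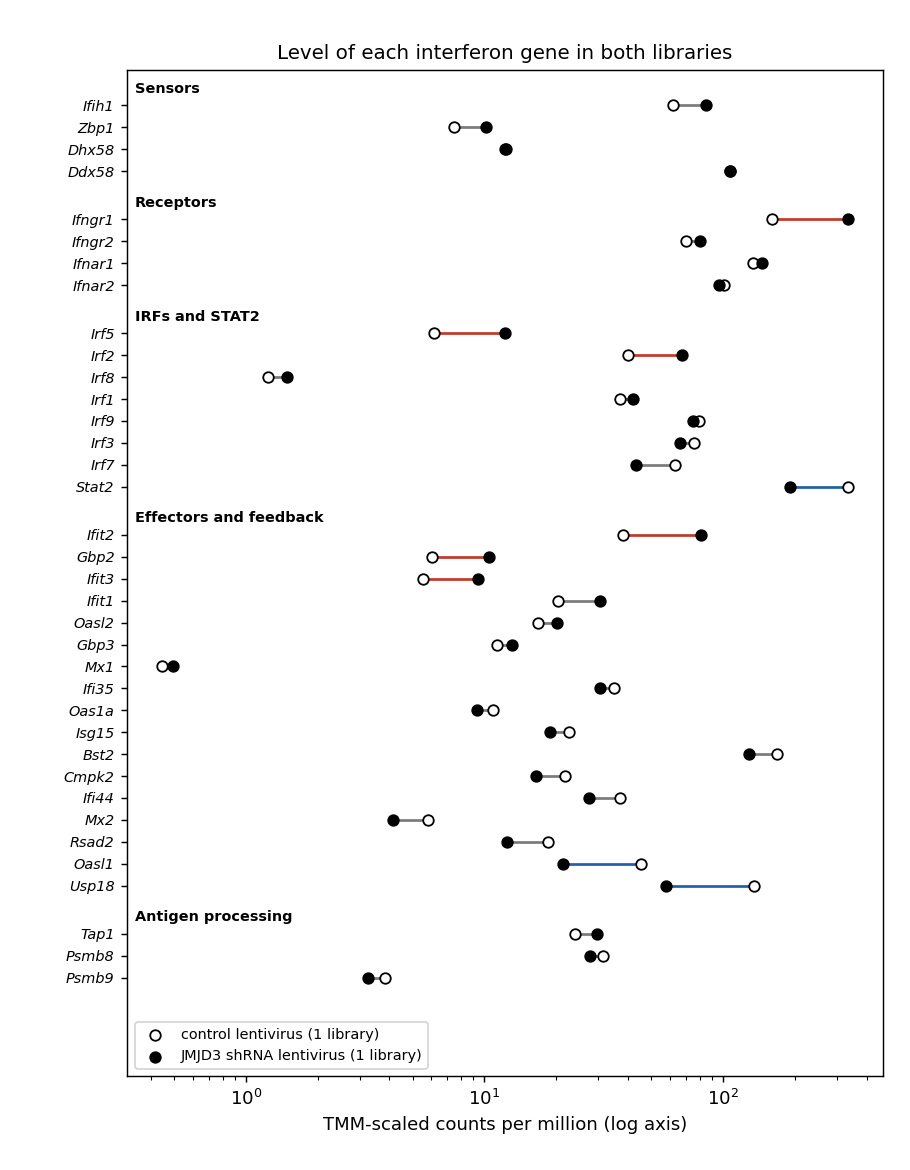
The level of each of the 36 genes is plotted as TMM-scaled CPM on a log axis, with an open circle for the control library and a filled circle for the knockdown library, and lines in red or blue where the size rule was passed. Levels run from about 0.4 CPM for Mx1 to 335 CPM for Stat2, and the longest lines belong to Usp18, Oasl1, Ifit2 and Ifngr1.

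The antiviral effectors and feedback genes numbered 17, of which 16 were measured, with a median log2 ratio of -0.24. Of the 16, 3 were higher (18.8%) and 2 lower (12.5%), beside 15.3% and 12.8% of all measured genes. With the exon length trend removed the median of the 16 was -0.02. Usp18 removes ISG15 from proteins and blocks signalling at IFNAR2. It had the lowest ratio of the 36 genes, at 134 CPM in control and 57.5 CPM in the knockdown on 1508 and 1042 counts. It was 2.33-fold lower (log2 -1.22, interval -1.34 to -1.11). Isg15, the ubiquitin-like protein that Usp18 removes, was at 22.7 and 18.9 CPM (log2 -0.26, interval -0.50 to -0.02). The intervals of Usp18 and Isg15 did not overlap, and with the exon length trend removed Isg15, a short gene, was at 0.09. Usp18 lies on chromosome 6 from 121195924 to 121220935 in mm9, on the plus strand, with 11 exons, and Isg15 on chromosome 4 from 155573533 to 155574927, on the minus strand.

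Oasl1, a 2′-5′-oligoadenylate synthetase-like protein that restrains translation of Irf7, was at 45.1 CPM in control and 21.4 CPM in the knockdown. It was 2.11-fold lower (log2 -1.07, interval -1.27 to -0.88), on 507 and 388 counts. Its neighbour Oasl2, a family member with synthetase activity, was at 16.7 and 20.1 CPM (log2 0.27, interval 0.01 to 0.53). These genes lie next to each other on chromosome 5, 10994 bp apart in mm9, and their ratios lay on opposite sides of 1. The interval of Oasl2 only just left out 1, and with the exon length trend removed it was -0.03 to 0.49. Oas1a, which makes the oligoadenylates that activate RNase L, was at 10.9 and 9.33 CPM (log2 -0.22, interval -0.56 to 0.13). In GENCODE transcripts 40.9% of the 100-base words of Oas1a are also in Oas1g, so reads of Oas1a may have gone uncounted.

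The Ifit genes, whose proteins bind viral RNA and limit its translation, all had ratios above 1. Ifit2 had the highest ratio of the 36 genes, at 38.3 CPM in control and 80.5 CPM in the knockdown on 430 and 1457 counts. It was 2.10-fold higher (log2 1.07, interval 0.92 to 1.23). Ifit3, which steadies IFIT1 on RNA, was at 5.52 and 9.44 CPM (log2 0.78, interval 0.35 to 1.22) on 62 and 171 counts. Ifit1, which recognises RNA caps that lack methylation, was at 20.4 and 30.5 CPM (log2 0.58, interval 0.36 to 0.81), just short of 1.5-fold. Ifit1 passed as higher with median-of-ratios scaling, at log2 0.59. Of the 100-base words of Ifit3, 31.7% are also in Ifit3b, a near-identical copy, which leaves its count uncertain. Ifit2 spans 34625184 to 34651024 on chromosome 19 in mm9, on the plus strand, with 3 exons.

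Gbp2, a guanylate-binding GTPase that coats intracellular pathogens and is induced above all by interferon gamma, was at 6.05 and 10.5 CPM (log2 0.79, interval 0.39 to 1.22). Gbp3, from the same family, was at 11.3 and 13.0 CPM (log2 0.21, interval -0.11 to 0.53). The 2 genes lie on chromosome 3, and Gbp2 spans 142283627 to 142300972 in mm9. Gbp2 passed and Gbp3 did not, and the difference between them was not tested.

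Among the classical type I effectors the remaining ratios were mostly below 1 without passing. Rsad2, which encodes viperin, an enzyme that makes a chain-terminating nucleotide, was at 18.4 and 12.5 CPM (log2 -0.56, interval -0.84 to -0.28). It passed as lower with scaling by library total alone, at -0.60, and with the exon length trend removed, at -0.66. Cmpk2, the mitochondrial nucleotide kinase that lies beside it and supplies its substrate, was at 21.8 and 16.5 CPM (log2 -0.41, interval -0.65 to -0.16). These neighbours stood on the same side of 1 with overlapping intervals.

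Ifi44, an interferon-induced protein with a GTPase-like fold, was at 37.0 and 27.4 CPM (log2 -0.43, interval -0.62 to -0.24). Bst2, or tetherin, which holds budding virions at the cell surface, was at 169 and 129 CPM (log2 -0.39, interval -0.48 to -0.31). Bst2 had the highest level per kb of exon of the 36 genes in both libraries, 220.5 CPM per kb in control and 168 in the knockdown. It is also a short gene of 766 bp of exon, and with the trend of the ratio with exon length removed it was at -0.04. Ifi35, which stabilises other interferon-induced proteins, was at 34.8 and 30.5 CPM (log2 -0.19). Its interval, -0.38 to 0.00015, just included a ratio of 1. With the exon length trend removed Ifi35 was at -0.0038, with an interval of -0.19 to 0.19.

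The Mx genes, GTPases that trap viral ribonucleoproteins, were low. Mx2 was at 5.78 and 4.14 CPM (log2 -0.48, interval -0.98 to 0.02). Mx1 had 5 counts in control and 9 in the knockdown, below the level required, and an interval of -1.57 to 2.09 that carries no direction. C57BL/6 mice are known to carry a defective Mx1 allele, which limits it as a readout in this strain. Mx1 was the only one of the 36 genes under the level filter, and no gene of the 36 was at 0 in a library.

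**Figure D3:**
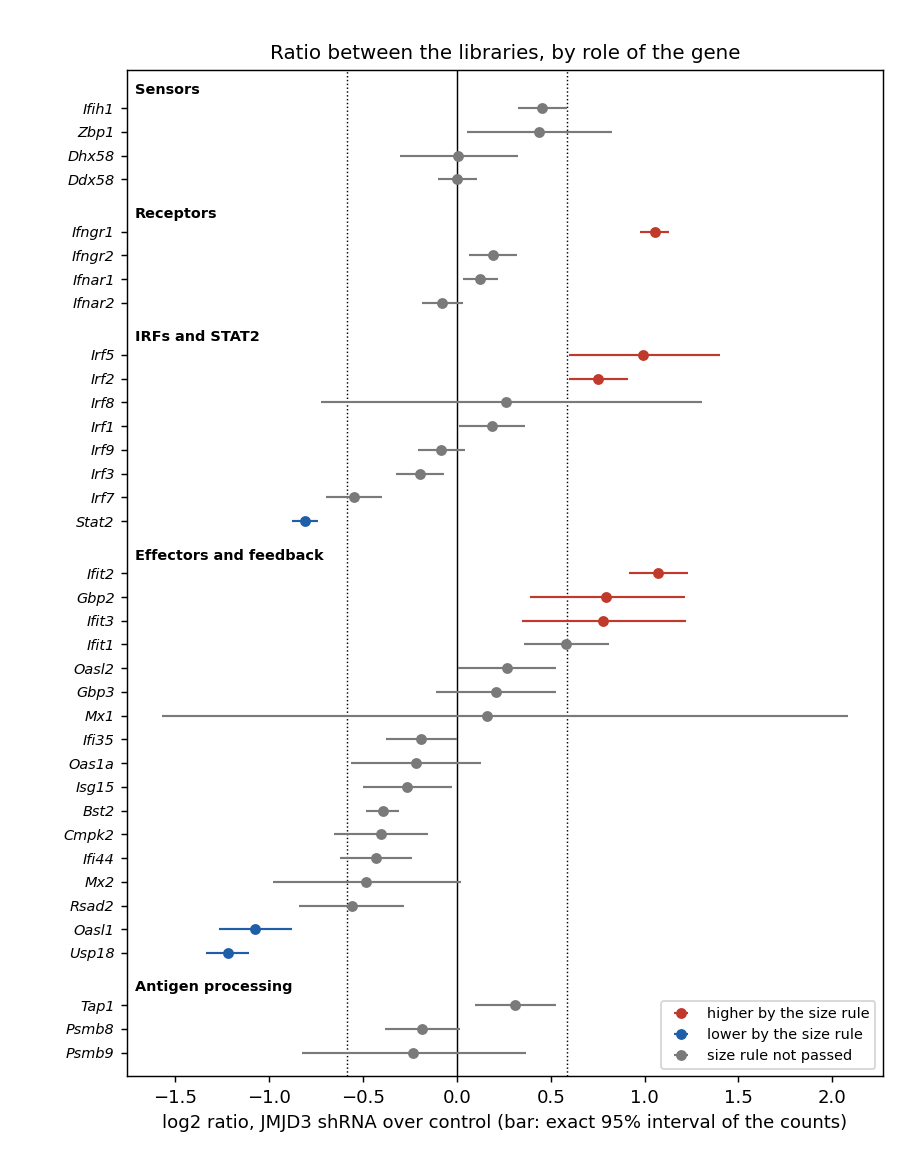
The log2 ratio of knockdown over control is plotted for each of the 36 genes with its exact 95% interval of the counts as a bar, grouped by role, and dotted lines mark 1.5-fold. Usp18, Oasl1 and Stat2 lie to the left of the left line, while Ifit2, Ifngr1, Irf5, Gbp2, Ifit3 and Irf2 lie to the right of the right line.

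The genes for antigen processing on MHC class I did not pass. Tap1, a chain of the transporter that carries peptides into the endoplasmic reticulum, was at 23.9 and 29.7 CPM (log2 0.31, interval 0.10 to 0.53). Psmb8 and Psmb9 encode catalytic subunits of the immunoproteasome, which replace the constitutive ones under interferon. Psmb8 was at 31.4 and 27.6 CPM (log2 -0.19, interval -0.39 to 0.01), and Psmb9 at 3.83 and 3.26 CPM on 43 and 59 counts (log2 -0.23, interval -0.82 to 0.37). The starts of Psmb9 and Tap1 lie only 226 bp apart on chromosome 17 in mm9, on opposite strands, and their ratios fell on opposite sides of 1 as measured. With the exon length trend removed both were above 1, at log2 0.11 for Psmb9 and 0.29 for Tap1. The median of the 3 was -0.19, and it changed sign to 0.062 with a minimum of 5 CPM and 0.11 with the exon length trend removed.

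The other genes of the pathway were taken from lists of 119 names, of which 113 were found in the files and 87 measured. The 87 include 3 constitutive subunits of the proteasome, listed for comparison with the immunoproteasome, none of which passed. Of these 18 passed as higher (20.7%) and 4 as lower (4.60%), beside 15.3% and 12.8% of all measured genes, with a median log2 ratio of 0.10. The split was 15 higher and 3 lower with the exon length trend removed, and 17 higher and 6 lower with scaling by library total alone. Shares of all measured genes were not computed for these settings. The ligands themselves were all but undetected. Of 11 interferon genes found, 10 had 0 counts in both libraries, Ifnb1, Ifng and 7 Ifna genes included, which allows up to 0.267 CPM for each in control and 0.166 CPM in the knockdown. Ifnk had 1 and 2 counts. Copies are an added limit here, with 16.6% of the words of Ifna5 shared with other genes, and Ifnl2 and Ifnl3 were not analysed here.

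None of the kinases that start the signal passed, and with the exon length trend removed the ratios of all 3 were below 1. Jak1, which serves every interferon receptor, was at 385 and 390 CPM (log2 0.02, interval -0.04 to 0.07). Tyk2, its partner at IFNAR1, was at 50.8 and 52.6 CPM, a log2 ratio of 0.05, and Jak2, the partner at IFNGR2, was at log2 0.10. In this list of 13 measured genes 1 was higher and 1 lower (7.69% each), beside 15.3% and 12.8% of all measured genes. The higher gene was Il28ra, an earlier symbol for the receptor of type III interferons, at 8.27 and 14.3 CPM (log2 0.79, interval 0.44 to 1.15). The lower gene was Socs3, a feedback inhibitor of cytokine receptors that is strongest on the interleukin-6 receptor, at 56.3 and 11.8 CPM (log2 -2.25, interval -2.48 to -2.03). The phosphatase Ptpn11, the other abundant member, was at log2 0.52 and did not pass.

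Among 15 measured genes of nucleic acid sensing and its adaptors 3 were higher (20.0%) and none lower, with a median of 0.11. Of all measured genes 15.3% were higher and 12.8% lower. Ikbke, a kinase that can phosphorylate IRF3 and IRF7, was at 43.9 and 91.6 CPM (log2 1.06, interval 0.92 to 1.21). Its relative Tbk1, which does the same in most cells, was at 87.9 and 82.0 CPM (log2 -0.10, interval -0.22 to 0.02). Traf3, an adaptor between sensors and these kinases, was at 44.7 and 86.0 CPM (log2 0.95), and Tlr4, the receptor for lipopolysaccharide, had 25 and 78 counts (log2 0.95, interval 0.29 to 1.67). Tank, which binds these kinases, was at log2 0.10. The intervals of Ikbke and Traf3 lay above those of Tbk1 and Tank.

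Of 42 other interferon-induced genes 13 passed as higher (31.0%) and 1 as lower (2.38%), beside 15.3% and 12.8% of all measured genes, with a median of 0.41. With the exon length trend removed 9 of the 42 were higher and 1 lower, and the median was 0.37. The share of all measured genes was not computed with the trend removed, so these counts have no matching background. Parp14, Pml, Samhd1 and Ddx60 then no longer passed as higher, Ifitm2 no longer passed as lower, and Herc6 did. Slfn2, a Schlafen protein of lymphocytes and macrophages, had 27 counts in control and 214 in the knockdown, 2.40 and 11.8 CPM (log2 2.30, interval 1.72 to 2.93). Irgm1, a GTPase that regulates autophagy of pathogens and is induced by interferon gamma, was at 192 and 417 CPM (log2 1.12, interval 1.05 to 1.19). The GTPases Ifi47 and Gbp7 were at log2 0.98 and 0.96. The single lower gene was Ifitm2, which blocks viral entry at endosomes, at 182 and 108 CPM (log2 -0.75), and its paralog Ifitm3 was at -0.41. Both are short genes, and with the exon length trend removed Ifitm2 was at -0.34 and Ifitm3 at -0.01. Since 34.9% of the words of Ifitm2 are shared with other genes, its count is uncertain. Ifitm2 and Ifitm3 were the most abundant of this list per kb of exon, at 290 and 223 CPM per kb in control. The list was assembled by hand and its share is a description of these libraries.

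In the MHC class I list 1 of 14 genes was higher (7.14%) and 2 lower (14.3%), with a median of -0.37. Of all measured genes 15.3% were higher and 12.8% lower. Nlrc5, the transactivator of MHC class I genes, was at 47.5 and 91.2 CPM (log2 0.94, interval 0.80 to 1.08). With the exon length trend removed Nlrc5 still passed, at 0.64. Among genes that it is known to activate, Tap1 was at 0.31, as given above, while all 4 MHC class I surface genes had ratios below 1. These are B2m, H2-K1, H2-T23 and H2-D1, the last at log2 -0.36. B2m, the shared light chain, was at 2511 and 1927 CPM (log2 -0.38) and the heavy chain H2-K1 at 1162 and 864 CPM (log2 -0.43), and with the trend removed they were at -0.06 and -0.29. The lower genes were H2-T23, a nonclassical heavy chain, at log2 -0.74, and Calr, a chaperone of peptide loading, also at -0.74. With the trend removed Calr still passed, at -0.63, while H2-T23 did not, at -0.54, and the median of the list was -0.11.

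**Figure D4:**
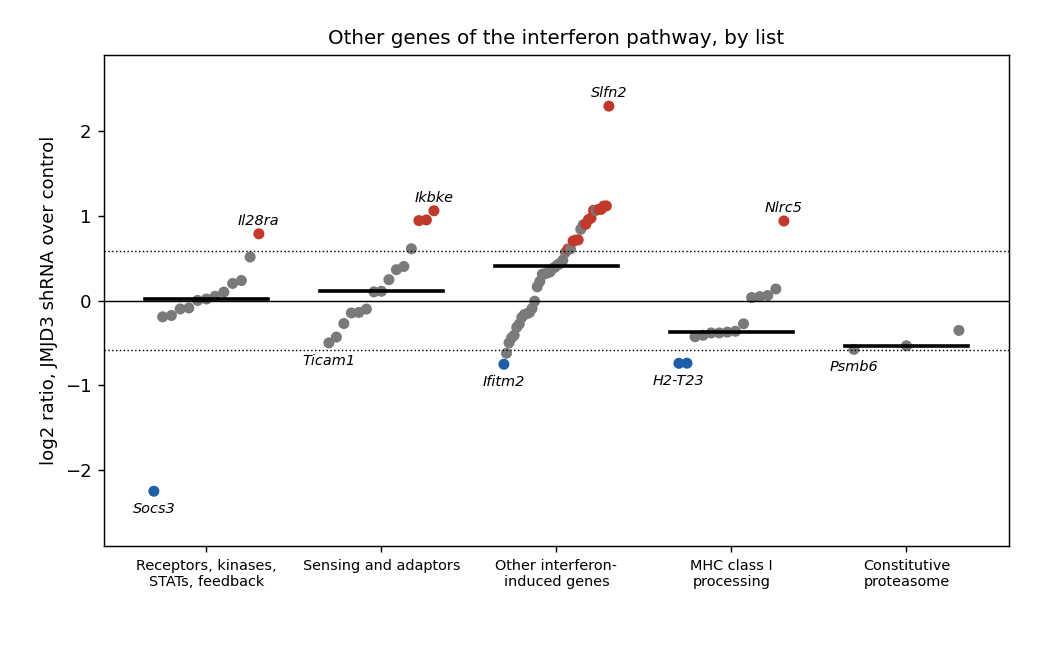
Each point is a measured gene of 5 lists, with the log2 ratio of knockdown over control on the y axis. The lists hold other interferon pathway genes and, for comparison, the constitutive proteasome subunits. A black bar marks the median of each list, dotted lines mark 1.5-fold, and red or blue marks genes that passed the size rule. The other interferon-induced genes, with a median of 0.41, lie mostly above 0, while the MHC class I list, with a median of -0.37, lies mostly below it, and the extremes are Slfn2 and Socs3.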

How the data were processed

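Counts of reads over the exons of each gene came from featureCounts 1.4.6-p4, per the file headers, run on STAR alignments and UCSC gene models for mm9, without strand. Reads were 100 bp paired ends, per the labels' protocols. STAR 2.5.3a, Trimmomatic 0.36 and edgeR are named in the submitters' processing notes, with no role or order. The recorded command has no option for pairs or for reads with several places, so each read of a pair may count on its own and copies share uncertain counts. Exonic length in bp is per the file headers. The authors' deposited table gives log2 fold changes, log2 CPM, p-values and adjusted p-values, and its test is not given in the sources used here.

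Counts were scaled by TMM (edgeR 4.0.16, R 4.3.3) to CPM. Log2 ratios used no pseudocount and exact conditional binomial 95% intervals (scipy 1.17.1). A count of 0 allows up to 3 counts. Reads that are not independent molecules, such as mates and PCR copies, make these intervals narrower than the true error. The intervals and the size rule were run on simulated counts that varied by counting error alone. That run cannot show how they hold for single cultures or for reads that are not independent. DESeq2 1.42.0 supplied median-of-ratios factors, and the exon length trend was a lowess fit with a fraction of 0.3 (statsmodels 0.14.6). Sharing of sequence was the percentage of 100-base words of a gene's GENCODE M21 transcripts found in another gene. The named genes are all 36 interferon genes; in other pathway lists, the JAK kinases, up to 4 genes that passed each way, taken by the interval bound nearest to 1, and the 2 most abundant per kb of exon. One further gene is not reported here. Genes, lists and rules were chosen with earlier results of these data known.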

Additional observations from a re-analysis of the deposited data

How the results depend on the processing

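No paired analysis was possible because each group is 1 library, and for the same reason no replicate could be left out. Among the 36 genes, 6 were higher and 3 lower; 5 were lower with scaling by library total alone, which added Irf7 and Rsad2, and 2 were higher at a limit of 2-fold. Of the other pathway genes, 7 were higher and 1 lower at 2-fold, fewer by construction. Size rule shares of all measured genes were computed only with TMM scaling, a limit of 1.5-fold and the length trend left in. The median of the antigen processing genes, -0.19, was 0.062 with a minimum of 5 CPM, which leaves out Psmb9, and 0.11 with the exon length trend removed. Across all measured genes the median log2 ratio ran from -0.28 in the shortest of 5 bins of exon length to 0.28 in the longest. All 9 interferon genes that passed kept their direction and their side of the size rule under both other scalings and with the length trend removed. Ifit1 passed as higher at 0.59 with median-of-ratios scaling and 0.60 with the length trend removed, and Rsad2 as lower at -0.66 with the latter. Depth limits Mx1, Irf8 and Psmb9, whose intervals include a ratio of 1. Libraries of 1 per group give no measure of variation between cultures.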

Other observations

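The immunoproteasome subunits were set beside their constitutive counterparts, since each replaces 1 of them in the assembled particle. Psmb5, Psmb6 and Psmb7 all had ratios below 1 without passing the size rule, at log2 -0.53, -0.58 and -0.35. They are short genes, and with the exon length trend removed they were at -0.21, -0.30 and -0.06. The interval of Psmb7 was then -0.15 to 0.03. In CPM per kb of exon, Psmb8 over Psmb5 was 0.334 in control and 0.425 in the knockdown, Psmb9 over Psmb6 was 0.0275 and 0.0349, and Psmb10 over Psmb7 was 0.0841 and 0.110. Psmb10 itself was at 17.2 and 17.6 CPM. Each ratio was higher in the knockdown, by 0.34 to 0.39 on the log2 scale, while the immunoproteasome messages themselves stayed within 1.5-fold. No interval was computed for these ratios between genes, which were taken with the length trend left in. Psmb9 has 43 and 59 counts, which limits its ratio, and its own interval was -0.82 to 0.37. The count of Psmb5 is uncertain, since 22.2% of its words are shared with other genes and 12.5% of its exonic bases overlap Mir686.

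Families of interferon-induced genes, GTPases among them, were also counted, a grouping chosen after their values were seen. Among all measured genes 15.3% passed as higher and 12.8% as lower. A family picked by its values cannot be weighed against those shares. All 6 measured guanylate-binding genes had ratios above 1 and 4 passed as higher: Gbp2 and Gbp7, given above, Gbp6 at log2 0.90 and Gbp4 at 1.07, the last on 16 and 54 counts. Gbp9 was at 0.40 and Gbp3 at 0.21. Of 5 measured immunity-related GTPases, Irgm1 and Ifi47 passed as higher, Igtp was at log2 0.33 and Irgm2 at 0.16, and Iigp1, the most abundant per kb in control at 88.7 CPM per kb, was at -0.44. Of the words of Gbp6, 64.5% are shared with other genes, so its count is uncertain. The Mx genes are GTPases too, and Mx2 was at -0.48. Other families counted in the same way went in both directions. In the Ifit family 2 of 3 genes were higher, with a median of 0.78. In the Oas family 1 of 6 measured genes was lower and none higher, with a median of -0.18. Of 4 MHC class I surface genes 1 was lower and none higher, with a median of -0.40.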
